A study of Homo sapiens with 4 samples.

Results

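The expression of 10 actomyosin contractile and caveolin genes was examined in NCI-H1048, an established line of human small cell lung cancer with features of tuft cells, the rare chemosensory cells of epithelia. The genes were chosen by symbol, with earlier results of these data known: ACTA2, TAGLN, MYL9, CNN1, CNN2, CNN3, TPM1, TPM2, CAV1 and CAV2. All 10 of 10 were found, each with 1 row, among the 35979 gene symbols of the tables. RNA sequencing of poly(A)-selected RNA gave 4 libraries of this line. The COLCA2 group had 2 libraries, each made with a different guide RNA (gRNA) against COLCA2 and labelled a COLCA2 knockout. The POU2F3 group had 1 library, labelled a POU2F3 knockout, and the non-targeting group had 1 library of cells that received a non-targeting gRNA, labelled WT and called the control here. POU2F3 is the transcription factor that sets the tuft cell program, and COLCA2 encodes a co-activator of POU2F3. Whether the cells were clones or pools, and the time after the guides were given, are not stated in the sources used here.

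Contraction of non-muscle and smooth muscle cells depends on actin filaments that are pulled by myosin II. Tropomyosins lie along the filament, calponins and transgelin bind it, and the myosin regulatory light chain switches the motor on when phosphorylated. ACTA2, TAGLN, MYL9, CNN1 and TPM2 are best known from smooth muscle and myofibroblasts, whereas CNN2, CNN3 and TPM1 are also made by many epithelial cells. Many of these genes respond to serum response factor (SRF), which binds a DNA element called the CArG box, and its actin-sensing partners MRTFA and MRTFB. Caveolins build caveolae, small pits of the plasma membrane that flatten under tension.

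Values are normalized counts, that is, the reads of a gene scaled by a factor that is shared by the whole library. The libraries held between 21587741 and 29632382 reads assigned to genes. For each comparison with the control, 1 was added as a pseudocount before the log2 ratio was formed. The control and POU2F3 groups held 1 library each, so these ratios carry no test, and genes past 2-fold were counted. Every such ratio has the same single control library and therefore no replicate check on the control side. Spread within a group could be seen in the COLCA2 pair alone, where the guide sequence, the cells and the library all differ. Intervals are 95% exact intervals that cover counting error only. In bulk RNA, more cells that make a transcript and more transcript per cell cannot be told apart.

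The labels were checked on marker genes. POU2F3 had a normalized count of 14602 in the control, 3677 and 2351 with COLCA2 guides 1 and 2, and 1449 in the POU2F3 library. COLCA2 had 5585, 3119, 3541 and 1393 in the same order. A guide can disable a gene without removing its transcript, so these levels do not measure the knockouts. Of the 7 tuft-type markers, POU2F3 and COLCA2 among them, 6 passed a mean of at least 20. All 6 were at least 2-fold lower in the POU2F3 library, against 3.05% of all genes. With both COLCA2 guides 4 of the 6 were, against 2.02%. TRPM5, a taste-type channel, stood at 3 reads or fewer in every library.

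The promoters are shown for 3 genes because they carry, or lack, the letters of the CArG box. The capitals mark matches to a CArG box, to a CArG box with 1 letter off in its centre, or to the MCAT element CATTCC, which TEAD factors bind (both strands). Each stretch holds the 250 bases before a RefSeq start site (GRCh38.p14), written 5′ to 3′.
ACTA2, chr10:88952774-88953023, minus strand: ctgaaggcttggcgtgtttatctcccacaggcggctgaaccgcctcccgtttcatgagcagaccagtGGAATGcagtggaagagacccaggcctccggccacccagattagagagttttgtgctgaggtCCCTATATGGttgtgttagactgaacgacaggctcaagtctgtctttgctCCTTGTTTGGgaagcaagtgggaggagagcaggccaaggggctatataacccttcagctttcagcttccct
CNN2, chr19:1026358-1026607, plus strand: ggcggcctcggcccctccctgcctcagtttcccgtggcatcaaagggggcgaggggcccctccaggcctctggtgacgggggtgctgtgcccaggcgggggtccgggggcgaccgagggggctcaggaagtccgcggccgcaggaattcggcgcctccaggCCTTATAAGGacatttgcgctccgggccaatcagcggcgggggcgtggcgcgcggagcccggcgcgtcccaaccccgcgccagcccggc
CNN1, chr19:11538601-11538850, plus strand: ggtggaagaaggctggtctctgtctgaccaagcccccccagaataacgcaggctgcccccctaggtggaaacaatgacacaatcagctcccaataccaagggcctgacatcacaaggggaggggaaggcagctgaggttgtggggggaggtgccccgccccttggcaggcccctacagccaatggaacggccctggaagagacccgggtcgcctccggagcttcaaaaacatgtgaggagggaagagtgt
The ACTA2 stretch held the matches CCCTATATGG and CCTTGTTTGG, each 1 letter off a CArG box, starting 121 and 71 bases before the start site, and GGAATG, the reverse complement of the MCAT element, 183 bases before it. CNN2 held CCTTATAAGG, a full CArG box, 89 bases before the start site. CNN1 held none of the elements in this window.

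RefSeq promoter windows were found for 8 of the 10 genes, in 14 windows that each run from 250 bases before to 50 bases after a start site. TAGLN and MYL9 had none. A full CArG box stood in 1 of the 14 windows, that of CNN2, against 1.29% of all 35116 windows. A CArG box with 1 letter off stood in 1 of the 14 windows, that of ACTA2, against 6.94% of all. CATTCC stood in 2 of the 14, at ACTA2 and CNN3, against 14% of all, and the TATA box TATAAA in 0 of the 14, against 11.5%. These matches describe the letters in the windows.

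Across the libraries, each of the 10 genes was lowest in the control. All 10 lay above it with COLCA2 guide 1, COLCA2 guide 2 and the POU2F3 library, whereas 34.4% of the 14940 genes that averaged 20 or more over the libraries did so. With both COLCA2 guides 7 of 10 were at least 2-fold higher, against 5.79% of all genes, and in the POU2F3 library 5 of 10 were, against 6.73%. The 5 (TAGLN, CNN1, CAV1, MYL9 and ACTA2) were at least 2-fold higher in all 3 libraries, against 4.89% of all genes, and TPM1 and CAV2 made up the 7. No member was at least 2-fold lower in either comparison, against 2.02% and 3.05% of all genes. The median log2 ratio of the 10 genes was 1.83 with COLCA2 guide 1, 1.90 with COLCA2 guide 2 and 1.44 in the POU2F3 library, beside -0.0052, -0.0017 and -0.0037 over all genes. MYL9 passed the minimum only through the libraries in which it was high, so its count among the higher genes follows in part from the minimum.

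**Figure D1:**
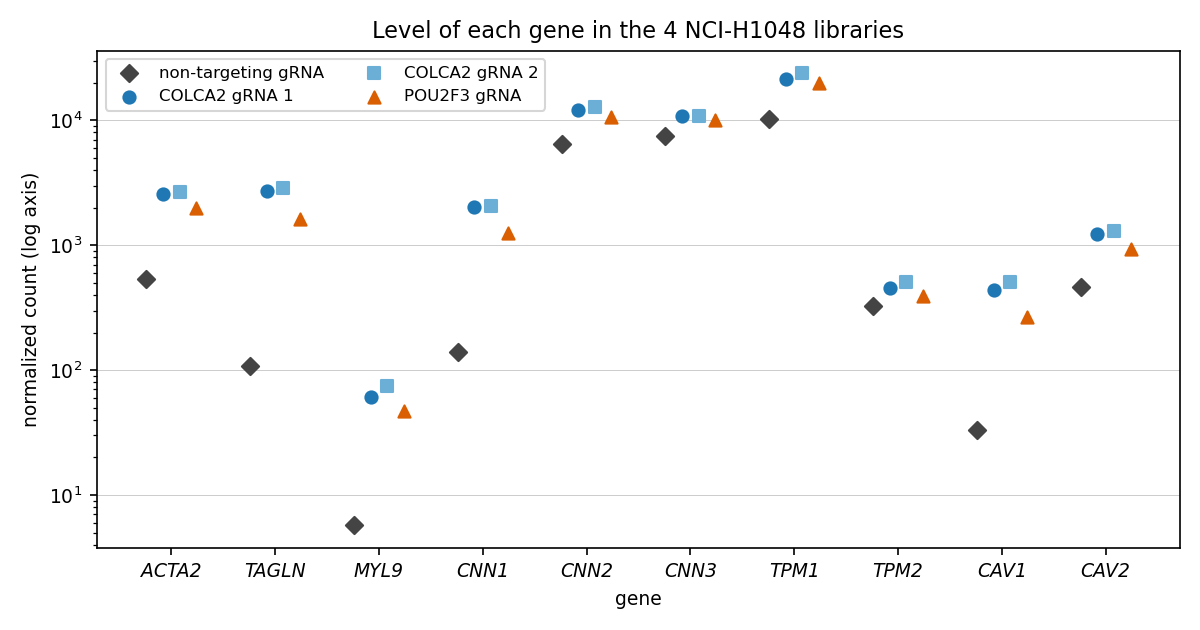
Normalized count (log axis) of each of the 10 genes in the 4 libraries, 1 point per library. In every gene the non-targeting point is the lowest and the POU2F3 gRNA point lies below both COLCA2 gRNA points, with the widest gap at TAGLN, from 107.9 to 2897.

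TAGLN had the largest ratio of the 10 genes in every knockout library. TAGLN (ENSG00000149591, chromosome 11, 117199321 to 117204782, plus strand of GRCh38) encodes transgelin, or SM22, an actin-bundling protein. TAGLN had a normalized count of 107.9 in the control, 2742 and 2897 with COLCA2 guides 1 and 2, and 1614 in the POU2F3 library. The COLCA2 libraries were highest and close to each other, and the POU2F3 library stood between them and the control. The ratio to the non-targeting level was 25.4-fold (interval 21.0 to 31.0) with COLCA2 guide 1, 26.8-fold (22.2 to 32.7) with COLCA2 guide 2 and 15.0-fold (12.4 to 18.2) in the POU2F3 library. Among the 14940 genes TAGLN ranked 45 by its mean log2 ratio with the COLCA2 guides, 4.69 ± 0.056 (SD, n = 2), and 53 in the POU2F3 library. The opposite-strand gene PCSK7 shares 446 exonic bases with TAGLN, and its log2 ratios were 0.042, 0.25 and -0.023 with COLCA2 guide 1, COLCA2 guide 2 and the POU2F3 library.

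CNN1 (ENSG00000130176, chromosome 19, 11538717 to 11550323, plus strand) encodes calponin 1, which binds actin and restrains myosin ATPase in smooth muscle. The normalized count of CNN1 was 140.4 in the control, 2030 and 2078 with COLCA2 guides 1 and 2, and 1246 in the POU2F3 library. The COLCA2 guides differed by less than their counting intervals, and the POU2F3 library lay lower. CNN1 was 14.5-fold (12.2 to 17.2) and 14.8-fold (12.5 to 17.6) higher with the COLCA2 guides and 8.87-fold (7.49 to 10.6) higher in the POU2F3 library.

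ACTA2 (ENSG00000107796, chromosome 10, 88935074 to 88991339, minus strand), the alpha actin of smooth muscle and myofibroblasts, was already present in the control. Its normalized count was 538.6 in the control, 2573 and 2677 with COLCA2 guides 1 and 2, and 1997 in the POU2F3 library. All 3 knockout libraries stood well above the control, and the mean log2 ratio with the COLCA2 guides was 2.28 ± 0.040 (SD, n = 2) against 1.89 in the POU2F3 library. ACTA2 shares 380 exonic bases with FAS, a death receptor gene on the opposite strand. FAS had log2 ratios of 1.40, 1.62 and 1.47 with COLCA2 guide 1, COLCA2 guide 2 and the POU2F3 library. Use of the strand in counting is not given in the sources used here, and the part of FAS reads in the ACTA2 value was not tested. Actin genes are also near-identical in their coding sequence, so the split of reads among them is uncertain.

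MYL9 (ENSG00000101335, chromosome 20, 36541484 to 36551447, plus strand), a regulatory light chain of myosin II that is typical of smooth muscle, was the scarcest member. MYL9 had 6 reads in the control, 59 and 64 with COLCA2 guides 1 and 2, and 56 in the POU2F3 library. These are normalized counts of 5.73, 61.2, 75.3 and 47.0. The knockout libraries were all higher than the control, but few reads were counted there. The resulting ratios had wide intervals: 10.7-fold (4.62 to 30.3) and 13.1-fold (5.72 to 37.1) with the COLCA2 guides and 8.20-fold (3.54 to 23.3) in the POU2F3 library.

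**Figure D2:**
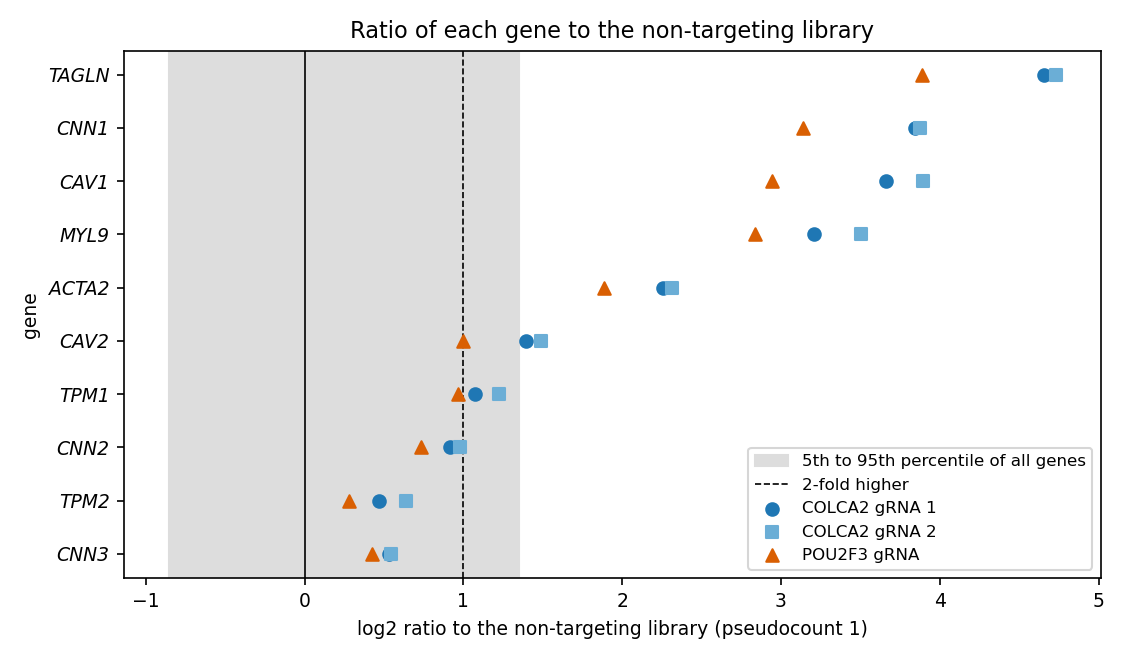
Log2 ratio of each gene to the non-targeting library, 1 point per library, sorted by the mean of the COLCA2 gRNAs. The grey band spans the lowest 5th and the highest 95th percentile of all genes over the 3 libraries (-0.86 to 1.35), and TAGLN, CNN1, CAV1, MYL9 and ACTA2 lie beyond it in every library.

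The more widely expressed calponins had smaller ratios. CNN2 (ENSG00000064666, chromosome 19, 1026581 to 1039068, plus strand), a calponin of epithelial and blood cells, had normalized counts of 6451 in the control, 12197 and 12704 with COLCA2 guides 1 and 2, and 10734 in the POU2F3 library. Each of the 3 was above the control with a ratio under 2-fold: 1.89 (1.83 to 1.95), 1.97 (1.91 to 2.03) and 1.66 (1.62 to 1.71). The interval with COLCA2 guide 2 holds 2-fold, so the side on which it lies cannot be told. CNN3 (ENSG00000117519, chromosome 1, 94896949 to 94927278, minus strand), the acidic calponin, had normalized counts of 7474, 10829, 10917 and 10050 in the same order. For CNN3 the log2 ratio averaged 0.54 ± 0.0083 (SD, n = 2) with the COLCA2 guides and 0.43 in the POU2F3 library.

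The tropomyosins stiffen the filament and govern the access of myosin. TPM1 (ENSG00000140416, chromosome 15, 63042632 to 63071915, plus strand) was the most abundant member, with a normalized count of 10176 in the control, 21432 and 23800 with COLCA2 guides 1 and 2, and 19846 in the POU2F3 library. Both COLCA2 libraries were just past 2-fold, at 2.11 (2.06 to 2.16) and 2.34 (2.28 to 2.39), and the POU2F3 library was just short of it, at 1.95. TPM1 overlaps 2 antisense genes of the annotation, and CNN2, CAV2 and ACTA2 overlap 1 further opposite-strand gene each, whose values were not analysed here. TPM2 (ENSG00000198467, chromosome 9, 35681992 to 35690121, minus strand), the beta tropomyosin of muscle, had normalized counts of 325.6, 452.0, 506.9 and 395.3 in the same order. Although TPM2 is known as a smooth muscle gene, its ratios were small: a mean log2 of 0.55 ± 0.12 (SD, n = 2) with the COLCA2 guides, a distance from that of CNN3 smaller than the SD of TPM2 and larger than that of CNN3, and 0.28 in the POU2F3 library.

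CAV1 and CAV2 lie next to each other on the plus strand of chromosome 7, with 16244 bases between the end of CAV2 (ENSG00000105971, 116287380 to 116508541) and the start of CAV1 (ENSG00000105974, 116524785 to 116561184). CAV1, the main coat protein of caveolae, had a normalized count of 33.4 in the control, 434.4 and 510.4 with COLCA2 guides 1 and 2, and 264.4 in the POU2F3 library. All 3 libraries were far above the control: 13-fold (9.20 to 18.9), 15.3-fold (10.8 to 22.2) and 7.91-fold (5.57 to 11.6). CAV2, the partner that needs caveolin 1 to leave the Golgi, had normalized counts of 467.0, 1231, 1311 and 931.7 in the same order. CAV2 was 2.64-fold (2.37 to 2.93) and 2.81-fold (2.52 to 3.13) higher with the COLCA2 guides. With POU2F3 gRNA the log2 ratio of CAV2 was 0.99, just under 2-fold, with an interval of 1.79 to 2.22 on the fold scale, so on which side of 2-fold it lies cannot be told at this depth.

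As an alternative, the recovered reads of all 14940 genes entered edgeR's quasi-likelihood test, adjusted after Benjamini and Hochberg. It called 9 of 10 members higher for COLCA2 gRNA, against 11.4% of all genes, and the same number for POU2F3 gRNA, against 8.45%. TPM2 was the member that did not pass in either comparison, and 0 of 10 were called lower, against 7.51% and 3.98% of all genes. The residual spread of that test comes from the COLCA2 pair alone. The control and POU2F3 groups hold 1 library each, so in every comparison the test compares libraries and not conditions.

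The order of the genes by level changed with the knockouts. On the scale of normalized count per kb of transcript, the level in the control ran from 3452 for CNN3, 2961 for CNN2 and 2572 for TPM1, through 399.2 for ACTA2, 206.1 for TPM2 and 141.5 for CAV2, to 86.0 for CNN1, 49.8 for TAGLN, 10.4 for CAV1 and 2.03 for MYL9. TAGLN and CNN1, which stood below TPM2 and CAV2 in the control, stood above both in each of the 3 other libraries. With the COLCA2 guides the level per kb was 1266 and 1337 for TAGLN and 1243 and 1273 for CNN1, ranges that overlap. It was 286.1 and 320.8 for TPM2 and 372.8 and 397.2 for CAV2. CNN2 (5598 and 5830) and TPM1 (5416 and 6015) also overlapped between the guides, as the highest genes.

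Within their families, again per kb, CNN1, TAGLN, CAV1, ACTA2 and MYL9 held a larger share in each of the 3 other libraries than in the control, whereas TPM2 held a smaller one. CNN1 made up 1.32% of the 3 calponins in the control, 10.5% with each COLCA2 guide and 7.38% in the POU2F3 library. CNN3 was above CNN2 in the control and below it in the other libraries, with a CNN3 share of 53.1% in the control and 42.2%, 41.5% and 44.9% with COLCA2 guide 1, COLCA2 guide 2 and the POU2F3 library. TAGLN was 0.741% of the transgelins in the control and 6.57%, 6.87% and 4.56%, beside its epithelial relative TAGLN2. TAGLN2 itself had log2 ratios of 1.44, 1.45 and 1.23.

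CAV1 was 6.87% of the caveolins in the control and 26.7%, 28.6% and 22.6% in the knockout libraries. CAV3, the muscle caveolin, was listed at 0 in all but the POU2F3 library, where it had 1 read. ACTA2 made up 0.610% of the smooth muscle and cytoplasmic actins (ACTA2, ACTG2, ACTB, ACTG1) in the control and at most 1.76% elsewhere, so ACTB and ACTG1 remained the main actins by far. MYL9 was 0.032% of the regulatory light chains in the control and 0.171%, 0.193% and 0.16% in the knockout libraries, beside MYL12A and MYL12B. Of the tropomyosins, TPM1 held 27.1% in the control and 32.0%, 33.8% and 32.5% elsewhere, whereas TPM2 held 2.17% in the control and 1.69%, 1.80% and 1.62% elsewhere. The summed level per kb was also higher for each family, with the actins lowest in all 3 libraries (log2 0.76, 0.79 and 0.55 with COLCA2 guide 1, COLCA2 guide 2 and the POU2F3 library). The caveolins were highest with the COLCA2 guides (1.74 and 1.87, against 1.52 and 1.53 for the transgelins), and in the POU2F3 library the transgelins (1.28) and caveolins (1.27) were close.

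**Figure D3:**
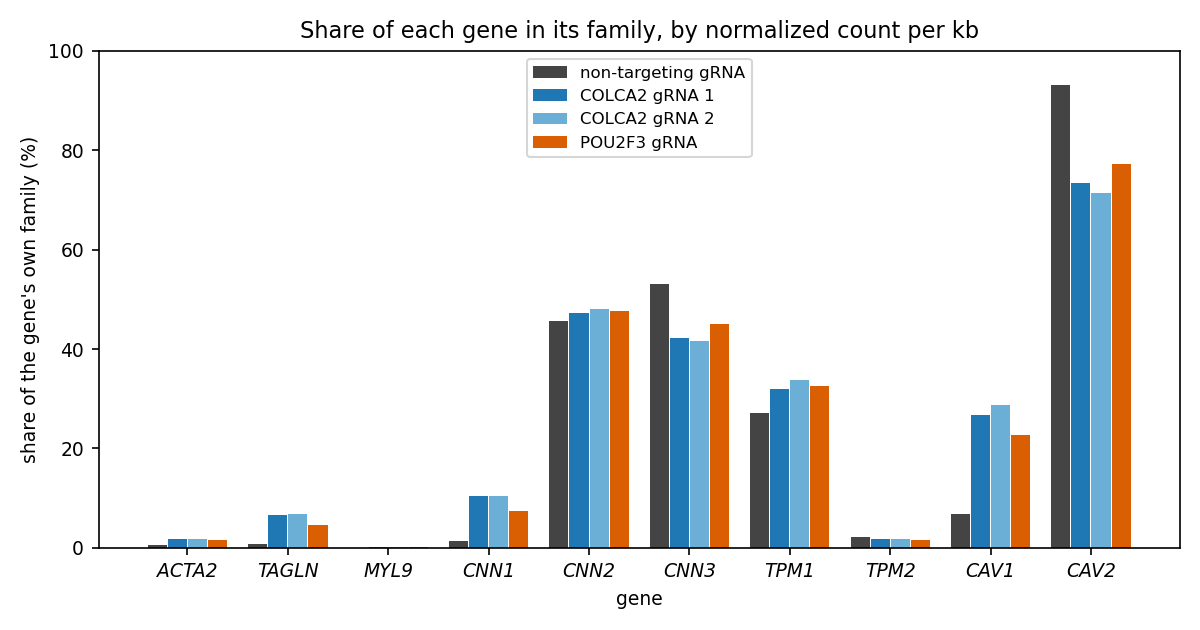
Share (%) of each gene in the summed normalized count per kb of its own family, 1 bar per library. The families are the smooth muscle and cytoplasmic actins, transgelins, regulatory light chains, calponins, tropomyosins and caveolins. The CNN1, TAGLN and CAV1 bars are taller in the 3 knockout libraries than in the control, and the MYL9 bars do not exceed 0.193%.

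The POU2F3 library was set directly against the COLCA2 libraries, a comparison that leaves the non-targeting library out. All 10 genes were lower in the POU2F3 library than with either COLCA2 guide, whereas 38.9% of all genes were. In 9 of 10 the distance to the nearer guide exceeded the gap between the guides, against 23.8% of all genes. TPM1 was the exception, with a log2 difference of -0.11 from COLCA2 guide 1 and a gap of 0.15 between the guides. No member was 2-fold below both guides, against 0.924% of all genes. The median difference from the mean of the guides was -0.42 for the 10 genes and -0.0039 for all genes.

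CAV1, TAGLN and CNN1 showed the largest distances. CAV1 in the POU2F3 library stood at 60.9% (interval 52.4% to 70.6%) of its level with COLCA2 guide 1 and 51.8% (44.7% to 60.0%) of that with COLCA2 guide 2. TAGLN stood at 58.9% (55.5% to 62.4%) and 55.7% (52.5% to 59.2%). CNN1 stood at 61.4% (57.3% to 65.7%) and 59.9% (55.9% to 64.3%). The widely expressed genes were closer: CNN3 stood at 92.8% and 92.1%, and CNN2 at 88.0% and 84.5%. MYL9 stood at 76.8% (52.3% to 112.7%) of its level with COLCA2 guide 1, an interval that holds 100%, and at 62.4% (42.8% to 90.8%) of that with COLCA2 guide 2, which does not. In this contrast edgeR's quasi-likelihood test called TAGLN lower and no other member, against 0.234% of all genes called lower, and 0 members higher, against 0.107%.

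**Figure D4:**
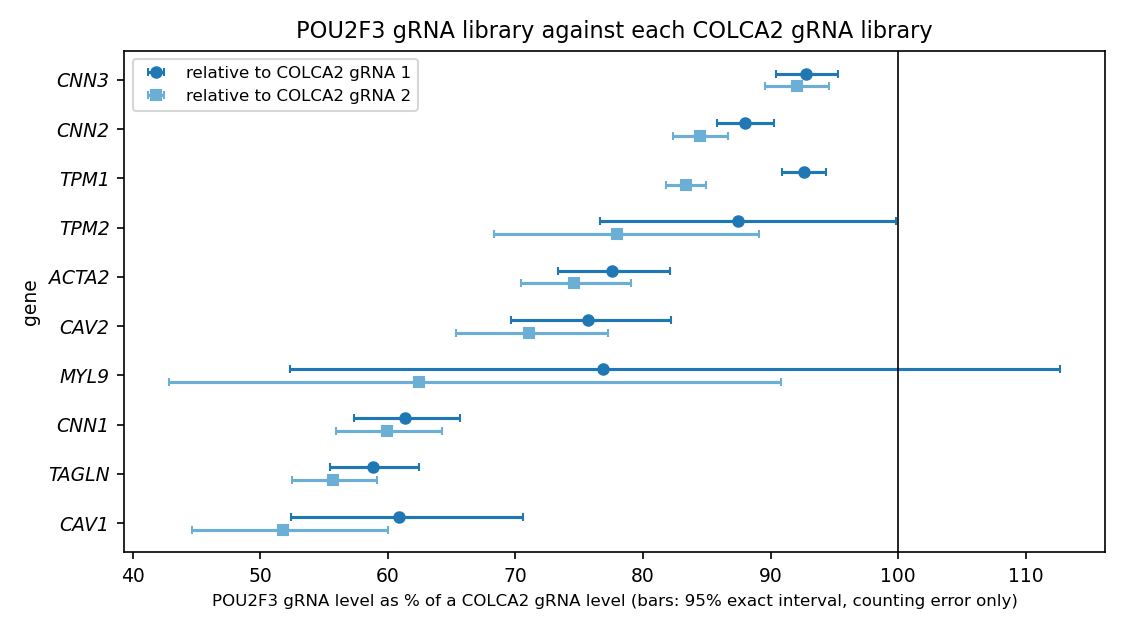
Level of each gene in the POU2F3 library as a percentage of its level with COLCA2 guide 1 and with COLCA2 guide 2. Bars are 95% exact intervals for counting error, and every point lies left of 100%, with CAV1 the farthest at 51.8% of COLCA2 guide 2.

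The COLCA2 guides were close to each other. No member differed 2-fold between them, against 2.22% of all genes. All 10 were higher with gRNA 2 than with gRNA 1, whereas 51.1% of all genes were. The differences were small, from 0.012 on the log2 scale at CNN3 to 0.29 at MYL9, with CAV1 at 0.23. The POU2F3 transcript itself was lower with gRNA 2 than with gRNA 1 (2351 against 3677), and the COLCA2 transcript was higher (3541 against 3119). The POU2F3 library had the lowest POU2F3 count, 1449, and lower levels of all 10 genes than either COLCA2 guide. A link between these levels was not tested.

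The rest of the contractile machinery was described from lists drawn from general knowledge, but with earlier results of these data known. Of 37 other actomyosin genes, 36 passed the minimum. With both COLCA2 guides 16 of the 36 were at least 2-fold higher and 0 were lower, against 5.79% and 2.02% of all genes. In the POU2F3 library 13 were higher and 0 lower, against 6.73% and 3.05%. Their median log2 ratio was 0.97 with the mean of the COLCA2 guides and 0.73 in the POU2F3 library. By edgeR's quasi-likelihood test 26 were higher and 1 lower for COLCA2, against 11.4% and 7.51% of all genes, and 25 higher and 1 lower for POU2F3, against 8.45% and 3.98%.

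TNS1, ACTA1 and MYLK stood highest above the control by the smallest of their 3 ratios. TNS1 and ACTA1 passed the minimum only through the libraries in which they were high, so their place here and in the counts of higher genes follows in part from it. MYLK, the kinase that phosphorylates the regulatory light chain, had normalized counts of 128.9 in the control, 603.4 and 662.1 with COLCA2 guides 1 and 2, and 417.2 in the POU2F3 library. All 3 lay above the control, the POU2F3 library least. ACTA1, the skeletal muscle actin, had 11.5, 54.9, 76.4 and 42.0, few reads throughout. TNS1, a focal adhesion protein, had only 4 reads in the control and differed between the guides, with 76 reads with gRNA 1 and 17 with gRNA 2. Of the 36 genes, 31 lay above the control in all 3 libraries, against 34.4% of all genes, and CSRP2, TAGLN3 and MYH14 lay below it in all 3. MYH14 was close to the control with COLCA2 guide 1, with log2 ratios of -0.028, -0.13 and -0.31 for COLCA2 guides 1 and 2 and the POU2F3 library. TAGLN3 had -0.97, -1.46 and -0.29 in the same order. CSRP2, a LIM protein of smooth muscle, had log2 ratios of -0.71 ± 0.055 (SD, n = 2) with the COLCA2 guides and -0.75 in the POU2F3 library.

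In the list of SRF, its partners and targets, 10 of 11 genes passed the minimum. FHL2, 1 of the 10, was at least 2-fold higher in both comparisons, against 5.79% (COLCA2) and 6.73% (POU2F3) of all genes. EGR1, also 1 of the 10, was at least 2-fold lower with both COLCA2 guides, against 2.02%. FHL2, a LIM protein that binds many transcription factors, had normalized counts of 518.5 in the control, 1914 and 2010 with COLCA2 guides 1 and 2, and 1212 in the POU2F3 library. EGR1, an immediate early gene, had 15532, 5864, 5272 and 11067 in the same order. SRF had a log2 ratio of 0.41 ± 0.033 (SD, n = 2) with the COLCA2 guides and 0.44 in the POU2F3 library, and FHL1 had 0.47 ± 0.096 and 0.41. The median of the list was 0.19 and 0.37, and MYOCD, the cardiac and smooth muscle partner of SRF, had at most 1 read in any library.

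Of the 10 genes of the caveola coat and its neck, 7 passed the minimum. CAVIN1, 1 of the 7, was at least 2-fold higher in both comparisons, against 5.79% (COLCA2) and 6.73% (POU2F3) of all genes. The median log2 ratio of the list was 0.13 with the mean of the COLCA2 guides and 0.091 in the POU2F3 library. CAVIN1, the coat protein without which caveolae do not form, had normalized counts of 1229 in the control, 6013 and 6337 with COLCA2 guides 1 and 2, and 4788 in the POU2F3 library. It thus stood beside CAV1 and CAV2 above the control in each library. EHD1 had log2 ratios of 0.53 ± 0.090 (SD, n = 2) with the COLCA2 guides and 0.36 in the POU2F3 library, and EHD4 had 0.54 ± 0.012 and 0.25. EHD2, an ATPase at the caveola neck, had 94 reads in the control, 126 and 63 with COLCA2 guides 1 and 2, and 38 in the POU2F3 library. It was the single gene of this list at least 2-fold lower there, against 3.05% of all genes. CAVIN4, a muscle cavin, had -0.81 ± 0.099 (SD, n = 2) and -0.80.

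**Figure D5:**
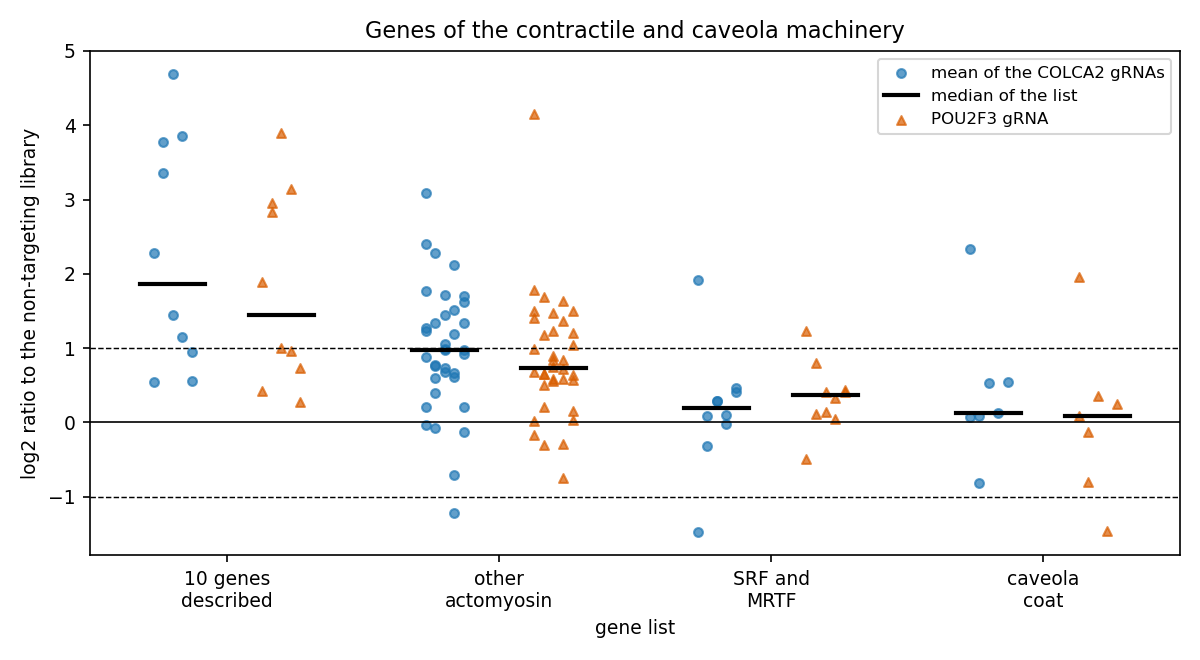
Log2 ratio over the control of the 10 genes and of 3 lists of related genes, with 1 point per gene past the minimum for the mean of the COLCA2 gRNAs (circles) and for POU2F3 gRNA (triangles). Thick lines are list medians and dashed lines mark 2-fold, and the medians of the 10 genes (1.86 and 1.44) are above those of the other lists.

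Markers of other cell types were measured beside these genes. Of 8 smooth muscle and pericyte markers, 3 stand in the actomyosin list too (ACTG2, LMOD1 and MYH11) and MYOCD in the SRF list. Their summed normalized count was 2378 in the control and between 3635 and 3659 in the other libraries. SYNM was the largest part of this sum, with 1790 in the control, 1953 and 2004 with COLCA2 guides 1 and 2, and 2184 in the POU2F3 library. All 6 markers past the minimum lay above the control in all 3 libraries, against 34.4% of all genes. With both COLCA2 guides 2 of the 6 were at least 2-fold higher, against 5.79%. In the POU2F3 library 3 were, against 6.73%. ACTG2 had 241.6 in the control, 1077 and 1030 with COLCA2 guides 1 and 2, and 750.4 in the POU2F3 library. RGS5 had 184.3, 239.5, 317.5 and 465.0 in the same order. DES, the muscle intermediate filament, was listed at 0 in 3 libraries and had 4 reads in the POU2F3 library. MYH11, the smooth muscle myosin heavy chain, had 95.5 in the control, 107 and 114 with the COLCA2 guides, and 96.5 in the POU2F3 library. PDGFRB, a pericyte receptor, had 22.9 in the control, 186.6 and 120.0 with COLCA2 guides 1 and 2, and 79.7 in the POU2F3 library. The 7 fibroblast markers summed to 1379 in the control and 1724 to 2015 elsewhere. LUM and COL3A1, 2 of the 5 past the minimum, were at least 2-fold higher in all 3 libraries, against 4.89% of all genes. LUM, at 14.3 in the control, passed the minimum only through the libraries in which it was high. Its count among the higher genes thus follows in part from the minimum. COL1A1, DCN and PDGFRA, the rest of the 5, lay above the control in some libraries and below it in others. COL1A1, the most abundant of the 7, had 1136 in the control, 1186 and 1008 with COLCA2 guides 1 and 2, and 1002 in the POU2F3 library. The 6 endothelial and leukocyte markers summed to 154.7 in the control and 195.6 to 262.3 elsewhere, with CD3E listed at 0 throughout. Within this sum CD68, a macrophage marker, had 72.6 in the control, 209.4 and 199.9 with COLCA2 guides 1 and 2, and 139.3 in the POU2F3 library. VWF, an endothelial marker, had 43.9, 17.6, 21.2 and 15.9 in the same order, at least 2-fold lower in all 3. It was 1 of 3 markers past the minimum, against 2.02% of all genes lower with both COLCA2 guides and 3.05% with POU2F3 gRNA. VWF passed the minimum through its control level, with 46 reads there and 17 to 19 elsewhere. Its count as lower thus follows in part from the minimum. PECAM1 ranged from 22.0 to 25.2. The part of other cells in the values of the 10 genes was not tested.

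The genes whose pattern was most like that of CAV1 and TAGLN were found by the Euclidean distance between their 3 log2 ratios, among 12158 other genes that averaged 100 or more. The distance rests on 3 ratios that share 1 control. Nearest to TAGLN were ANKRD1 at 0.12 and CCDC80 at 0.15. ANKRD1, a mechanically responsive gene first known from heart muscle, had normalized counts of 102.2 in the control, 2453 and 2584 with COLCA2 guides 1 and 2, and 1520 in the POU2F3 library. Nearest to CAV1 were FOSL1 at 0.18, GDF15 at 0.20 and IL32 at 0.20. FOSL1, the AP-1 subunit FRA1, had 29.6, 424.0, 430.4 and 219.9 in the same order.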

How the data were processed

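RNA was measured in 4 libraries of NCI-H1048, from 2 COLCA2 guides, 1 POU2F3 guide and 1 non-targeting guide. Each COLCA2 guide has 1 library, so any spread or p-value measures these samples. It mixes differences of guide, cells and library, part of which may be technical. Per the labels' protocols, TRIzol-extracted, DNase-treated RNA was poly(A)-selected and turned into libraries using a NEBNext Ultra II RNA kit. The authors deposited a normalized count for each gene, per the file headers, which is a signal on a linear scale. Salmon, DESeq2 and hg38 are named in the submitters' processing notes, and their versions and use are not given in the sources used here. Dividing a library's values by its smallest step gave whole numbers for 100% of them (tolerance 0.01), taken as the reads.

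Rows of the same symbol were summed (38145 rows, 35979 symbols). The 14940 genes that averaged 20 or more were kept, and log2 ratios used a pseudocount of 1. Counts at 2-fold had no test. The edgeR 4.0.16 quasi-likelihood test (R 4.3.3, TMM, 3 groups, adjusted p at 0.05) was an alternative on the recovered reads, and the scripts were tested on simulated data. Exact intervals used scipy 1.17.1 and cover counting error only. Positions are those of GENCODE release 29 on GRCh38, joined on the gene identifier. Levels per kb used the principal transcript, or the longest where none is tagged, as for TPM1, TPM2 and CAV1. Another length would scale a gene alike in every library, but it would change the order of the genes and the family shares. Promoter windows came from RefSeq (GRCh38.p14).

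The 10 genes and the lists were chosen with earlier results of these data known. Named list genes are the 3 largest rises and falls per list by the smallest ratio over the 3 libraries, and like-pattern genes are the 3 nearest. Other genes named in the lists, family relatives and overlapping genes were chosen after their values were seen. The alternatives were 3 scalings, 2 pseudocounts, 2 minimums, 2 fold thresholds, the highest row of a symbol, each COLCA2 guide left out and edgeR. Of the genes these rules name, 1 of 4 lists, 1 marker and 1 like-pattern gene are not reported here.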

Additional observations from a re-analysis of the deposited data

How the results depend on the processing

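No paired analysis was possible because the control and POU2F3 groups hold 1 library each, with no numbers to pair. A count is called changed when it moved by over 1.5 times, and a median when its shift exceeded the guides' SD of 0.052. The 10 genes kept ratios above 0 in all 198 recomputed values, over 10 settings, and 17 of these moved by more than the spread between the guides. Many of the 198 repeat the main value by construction. A minimum mean or the highest row of a symbol cannot alter a member's ratio, and leaving out a COLCA2 guide cannot alter a POU2F3 ratio. Equal totals shifted the median of all genes by 0.069 and gave a median of 1.79 for the 10 genes with COLCA2 gRNA. A minimum mean of 100, which drops MYL9 by construction, gave medians of 0.99 with POU2F3 gRNA and 1.44 with COLCA2 gRNA. With a pseudocount of 10 the log2 ratio of MYL9 was 2.31 with COLCA2 gRNA and 1.86 with POU2F3 gRNA. At 1.5-fold, 8 of 10 genes were higher with POU2F3 gRNA, against 12.2% of all genes, and 3 were past that fold below both COLCA2 guides, against 2.5%. The edgeR test called 9 higher with POU2F3 gRNA and 1 different from COLCA2 gRNA.

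Of the 70 genes past the minimum in the 4 related lists, 17 were higher and 1 lower with POU2F3 gRNA, against 6.73% and 3.05% of all genes. With both COLCA2 guides 21 were higher and 1 lower, against 5.79% and 2.02%. The counts that follow show only how the lists moved with the setting. At 1.5-fold, 12.2% of all genes were higher with POU2F3 gRNA. No share of all genes was formed for the other list counts at 1.5-fold or at 4-fold. For lower genes with POU2F3 gRNA, no minimum gave 2, a minimum of 100 gave 0, 1.5-fold gave 3, 4-fold gave 0 and edgeR gave 3. For lower genes with COLCA2 gRNA, equal totals gave 2, no minimum 2, 1.5-fold 5, 4-fold 0 and edgeR 4, and leaving out a guide gave 1 to 2, with 2 without gRNA 1. For higher genes with POU2F3 gRNA, 1.5-fold gave 29, 4-fold 1 and edgeR 32, and with COLCA2 gRNA 4-fold gave 5 and edgeR 37. Over all genes, edgeR called 1709 higher and 1122 lower for COLCA2 gRNA, against 865 and 302 at 2-fold, and 1263 and 595 for POU2F3 gRNA, against 1005 and 455. Depth limits MYL9 most, with 6 reads in the control. The single control library limits every ratio.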
